A study of Sus scrofa with 2 samples.

Results

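The 7 miRNAs described here are best known from connective tissue, smooth muscle, cartilage and blood vessels, and were followed in small RNA libraries of pig oocytes. They are miR-143-3p, miR-145-5p, miR-199a-3p, miR-126-3p, miR-130a-3p, miR-214-3p and miR-140-3p. These are 7 of the 169 conserved miRNA entries that were matched in the same way, and were selected by name, with their levels in these libraries already known, so the levels and ratios below are descriptions and carry no test. A read was counted for a miRNA when it was 18 to 26 nt long, held bases 2 to 18 of the conserved mature form without mismatch and began within 2 nt of its 5' end. A read that begins 2 nt after that end lacks base 2 and could not be matched, so such starts were not seen. Of the 7 miRNAs, 5 had a read in the control library, 6 in the knockdown library, and miR-214-3p had none in either.

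Both libraries came from total RNA of pig oocytes after 42 h of in vitro maturation. The control library is labelled as metaphase II oocytes, and the other was made from oocytes treated with siRNA against Dicer at the germinal vesicle stage and then matured. What the control oocytes received in place of that siRNA, and how many oocytes were pooled, is not stated in the labels. There was 1 library per group, with 11836160 reads in the control and 11982925 in the knockdown, so every comparison is between these libraries and not between the conditions. The intervals given are at 95% and describe counting error alone, since reads amplified by PCR and lacking molecular identifiers need not come from separate molecules. The Dicer transcript was not measured here. miR-10b and miR-182 held most of the matched miRNA reads of both libraries. Together they stood at 54480 RPM (reads scaled to the size of the library) in the control and 53470 RPM in the knockdown.

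A miRNA is cut from a hairpin in steps, first by Drosha in the nucleus and then by Dicer in the cytoplasm, and its bases 2 to 8, the seed, lead the pairing with target mRNAs. A cut that moves by a single base at the 5' end therefore gives the miRNA another seed, while a change at the 3' end alters its length and leaves the seed as it is. miR-143 and miR-145 are made from neighbouring genes and are abundant in smooth muscle. miR-199a and miR-214 are typical of mesenchymal cells such as fibroblasts, and miR-126, of endothelial cells. miR-140 is known from cartilage, and miR-130a belongs to a family with a common seed that is found in endothelial and many other cells. In the RefSeq gene table of the pig assembly Sscrofa11.1, MIR143 and MIR145 were next to each other, MIR214 and MIR199A-1 were neighbours within DNM3, MIR199A-2 lay within DNM2, MIR199B within DNM1 and MIR140 within WWP2. miR-199a-3p and miR-199b-3p have the same bases 2 to 18, so their reads were counted together under miR-199a-3p.

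The most frequent reads of miR-143-3p, given here because the miRNA appears in lengths that share 1 seed, were as follows, with bases 2 to 8 of each read in capitals and bases written as in the tables, with T for U.
miR-143-3p, 20 nt: tGAGATGAagcactgtagct
miR-143-3p, 21 nt: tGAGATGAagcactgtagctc
miR-143-3p, 22 nt: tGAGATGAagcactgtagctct

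Reads of miR-140-3p began at either of 2 bases, so that the capitals mark different seeds.
miR-140-3p, 22 nt, start 1 nt later: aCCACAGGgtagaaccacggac
miR-140-3p, 23 nt, start 1 nt later: aCCACAGGgtagaaccacggact
miR-140-3p, 24 nt, conserved start: tACCACAGggtagaaccacggact

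For miR-130a-3p the shortened form and the full form are set side by side, since the shortened one held most reads of the knockdown library.
miR-130a-3p, 20 nt: cAGTGCAAtgttaaaagggc
miR-130a-3p, 22 nt: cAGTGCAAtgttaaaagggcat

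For miR-199a-3p, reads of 3 different starts that share a 3' end are given, since each start has its own seed.
miR-199a-3p, 22 nt, start 1 nt earlier: tACAGTAGtctgcacattggtt
miR-199a-3p, 21 nt, conserved start: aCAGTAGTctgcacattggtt
miR-199a-3p, 20 nt, start 1 nt later: cAGTAGTCtgcacattggtt

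The rare members had few reads, and 1 form of each is shown to identify it. The miR-126-3p form shown had 0 control reads and 1 knockdown read. Its other reads were of 19 nt (2 in the control) and of 24 nt (2 in the knockdown).
miR-145-5p, 23 nt: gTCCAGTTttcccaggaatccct
miR-126-3p, 22 nt: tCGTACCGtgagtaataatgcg

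Reads of the 7 miRNAs together numbered 739 in the control and 3096 in the knockdown, or 62.4 RPM (exact Poisson interval 58.0 to 67.1) and 258 RPM (249 to 268). The ratio of knockdown to control was 4.14 (exact conditional interval 3.82 to 4.49). They remained a small part of the miRNA reads, at 0.0953% in the control and 0.390% in the knockdown. In the control library miR-140-3p held 52.5% of their reads and miR-143-3p 38.7%, and in the knockdown library 40.3% and 45.6%. The share of miR-130a-3p went from 1.22% to 10.9%. In such pooled samples a change in the number of cells of a type and a change in RNA per cell cannot be told apart.

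A miRNA was called higher from a ratio of 2 upward and lower from 0.5 downward, provided that the libraries together held at least 100 of its reads. Of the 7 miRNAs, 4 reached 100 reads, and 3 of these, miR-130a-3p, miR-143-3p and miR-140-3p, were higher, while miR-199a-3p was neither. By the same rule 18 of 74 entries were higher, which is 24.3%, and 1 of 74 lower, which is 1.35%, and the 7 miRNAs are part of these entries. Among all 10652 distinct sequences of 18 to 26 nt with at least 100 reads, 5.03% were higher and 6.1% lower. The median log2 ratio was 1.98 over the 4 miRNAs with 100 reads and 0.29 over the 74 entries.

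**Figure D1:**
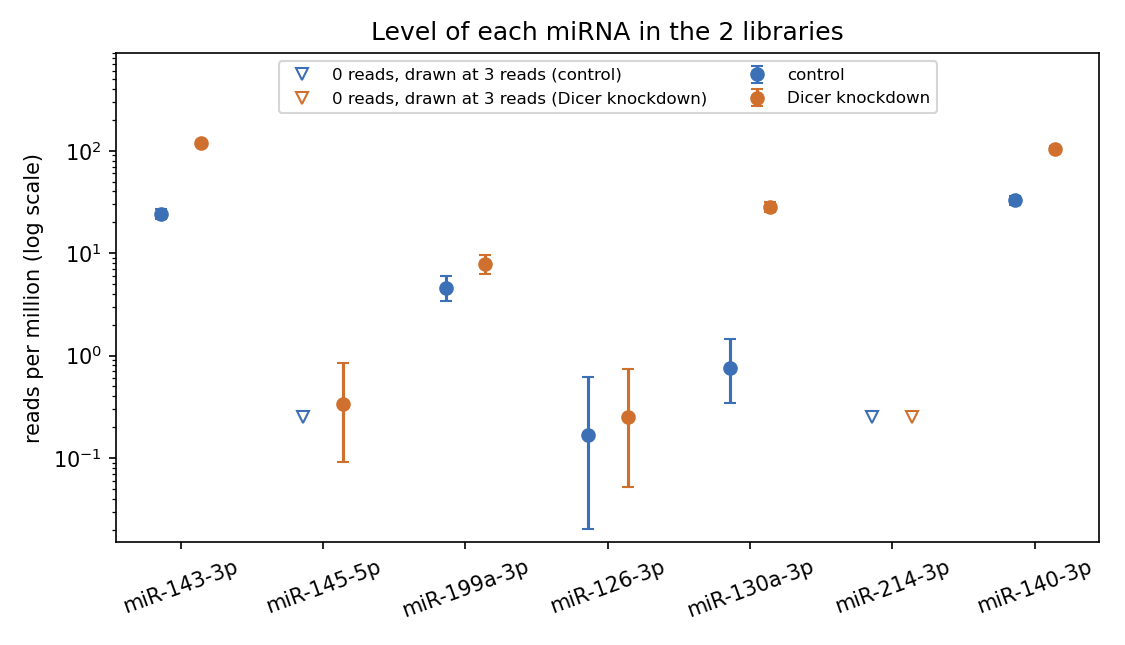
RPM (log axis) of each of the 7 miRNAs in the control library (blue) and the Dicer knockdown library (orange), with exact Poisson intervals as bars; open triangles mark 0 reads and are drawn at the level of 3 reads. The levels of miR-143-3p, miR-130a-3p and miR-140-3p are apart in the 2 libraries, while miR-145-5p, miR-126-3p and miR-214-3p lie at or near the level of 3 reads.

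miR-143-3p, abundant in smooth muscle and stromal cells, was read 286 times in the control and 1411 times in the knockdown. These are 24.2 RPM (21.4 to 27.1) and 118 RPM (112 to 124), a ratio of 4.87 (4.29 to 5.55). By reads it ranked 38 among the 169 entries of the control and 20 among those of the knockdown. While its level differed, the intervals of its length shares overlapped at every length. Reads of 20 nt were 43.4% (exact binomial interval 37.5 to 49.3%) of its control reads and 43.2% (40.6 to 45.9%) of its knockdown reads. Reads of 21 nt were 30.4% (25.1 to 36.1%) and 33.5% (31.0 to 36.0%), and reads of 22 nt 18.9% (14.5 to 23.9%) and 19.2% (17.2 to 21.4%). The ratio was thus 4.86 (4.0 to 5.94) for 20 nt, 5.36 (4.26 to 6.82) for 21 nt and 4.96 (3.69 to 6.77) for 22 nt. The 20-nt read printed above was the most frequent form in both, with 123 and 602 reads.

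The 3' ends of miR-143-3p differed in their last base. Reads ending at position 20 with T numbered 123 and 611, a ratio of 4.91 (4.04 to 6.01), and those ending at position 21 with C 82 and 395, a ratio of 4.76 (3.74 to 6.11). Reads ending there with T went from 5 to 64, a ratio of 12.6 (5.15 to 40.3), whose interval overlaps that of the reads ending with C. At position 22, reads ending with T numbered 44 and 196, a ratio of 4.40 (3.16 to 6.25), and reads ending with G 10 and 15. Reads ending at position 22 with A numbered 0 and 56. This is 18.4-fold higher when the control is set to a floor of 3 reads, and the exact lower limit of the ratio was 14.5. That interval lies above the one for reads ending with T. No precursor sequence was used here, so bases added after cutting and bases of the hairpin were not told apart. All 286 control reads began at the conserved base, as did 1396 of the 1411 knockdown reads, and the other 15 began 1 nt earlier.

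miR-145-5p, which is made from the gene next to that of miR-143, had 0 control reads and 4 knockdown reads. Its level was 0.334 RPM (0.0910 to 0.855) in the knockdown library, and the exact upper limit for its count of 0 in the control was 0.312 RPM. The depth did not allow a difference to be detected, since the exact interval of the ratio began at 0.652. The 4 reads were all the 23-nt form printed above. The neighbouring genes thus gave 1411 and 4 reads in the knockdown library. Neither miR-143-5p nor miR-145-3p, the opposite arms of these hairpins, had a read in either library.

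miR-140-3p was read 388 and 1247 times, in control and knockdown, or 32.8 RPM (29.6 to 36.2) and 104 RPM (98.4 to 110), a ratio of 3.17 (2.83 to 3.57). Most of its counted reads began 1 nt after the conserved start in both libraries, 331 of 388 in the control and 1091 of 1247 in the knockdown. These are 85.3% (81.4 to 88.7%) and 87.5% (85.5 to 89.3%), and the intervals overlap. The prevailing seed was therefore the one of the later start, and the seed of the conserved start was carried by 57 and 156 reads. Reads with the later start had a ratio of 3.26 (2.88 to 3.69) and reads with the conserved start 2.70 (1.98 to 3.73), and these intervals overlap.

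The lengths of miR-140-3p followed from these starts and from a pair of 3' ends. Among reads with the later start, 58.6% in the control and 53.5% in the knockdown ended at position 23 of the conserved form, and 39.0% and 44.6% at position 24. Among those with the conserved start, 32 of 57 control reads and 53 of 156 knockdown reads ended at position 23, and 22 and 91 at position 24. The 22-nt read printed above had 186 and 564 reads, a ratio of 2.995 (2.53 to 3.55), and the 23-nt read that is 1 base longer 112 and 440, a ratio of 3.88 (3.15 to 4.82). Short reads, of 18 to 20 nt, were nearly missing. They were 0 of 388 control reads, with an exact upper limit of 0.946%, and 8 of 1247 knockdown reads, or 0.642% (0.277 to 1.26%). The opposite arm, miR-140-5p, had 1 control read and 0 knockdown reads, so that 388 and 1247 reads came from the 3' arm of this hairpin.

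miR-130a-3p was read 9 times in the control and 338 times in the knockdown, or 0.760 RPM (0.348 to 1.44) and 28.2 RPM (25.3 to 31.4). The ratio was 37.1 (19.3 to 81.8), and the width of this interval reflects the 9 control reads. All of its reads began at the conserved base. The 20-nt read, which lacks the last 2 bases of the 22-nt form, went from 3 to 286 reads, a 94.2-fold ratio (31.9 to 459). The 21-nt form had 2 and 27 reads, a ratio of 13.3 (3.35 to 116), and the 22-nt form 2 and 17, a ratio of 8.40 (1.99 to 74.9). The 20-nt length class made up 85.2% (81.0 to 88.8%) of its knockdown reads and 33.3% (7.49 to 70.1%) of its control reads. Counting only reads of 21 to 26 nt, miR-130a-3p had 6 and 49 reads, a ratio of 8.07 (3.45 to 23.0), so most of its difference lay in the shortened form. No read matched miR-130a-5p.

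The seed of miR-130a-3p, AGTGCAA, is shared by miR-130b, miR-301a, miR-301b and miR-454 among the entries. miR-130b had 7 and 51 reads, a ratio of 7.20 (3.25 to 18.8), and was also often short, since 3 of its 7 reads in the control and 30 of its 51 in the knockdown were of 18 to 20 nt. miR-301a, with 36 and 94 reads and a ratio of 2.58 (1.74 to 3.90), had 0 reads of that length in either library. miR-301b had 3 and 1 reads and miR-454 none. No other entry shared bases 2 to 8 with the conserved forms of the other 6 miRNAs, apart from miR-199b-3p, which was counted with miR-199a-3p.

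miR-199a-3p was read 54 and 93 times, or 4.56 RPM (3.43 to 5.95) and 7.76 RPM (6.26 to 9.51), with 1.70 (1.20 to 2.43) as their ratio. Its reads were divided between starts. Those 1 nt before the conserved base numbered 23 and 36, or 42.6% (29.2 to 56.8%) and 38.7% (28.8 to 49.4%), and those at the conserved base 31 and 46. A start 1 nt later was seen in 0 control and 11 knockdown reads. This is 3.62-fold higher when the control is set to the floor of 3 reads, and the exact lower limit of the ratio was 2.48. Reads of 18 to 20 nt were 1 of 54 in the control, or 1.85% (0.0469 to 9.89%), and 18 of 93 in the knockdown, or 19.4% (11.9 to 28.9%). These 18 include the 11 reads with the later start, which lack the first base of the conserved form. Reads of 21 to 26 nt numbered 53 and 75, a ratio of 1.40 (0.970 to 2.03), so for full-length forms the depth did not allow a difference to be detected. Of the miR-199a-3p reads, 27 of 54 in the control carried the prevailing bases after position 18, up to position 22, or 50% (36.1 to 63.9%). In the knockdown they were 69 of 93, or 74.2% (64.1 to 82.7%), so the ratio of 1.70 covers reads of unlike 3' ends. The other arm, miR-199a-5p, had 0 and 2 reads.

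miR-214-3p and its opposite arm miR-214-5p had 0 reads in both libraries. The exact upper limits for each were 0.312 RPM in the control and 0.308 RPM in the knockdown. These limits hold only if the bases 2 to 18 used for matching are those of the pig. The gene next to MIR214, MIR199A-1, is 1 of the genes that can give miR-199a-3p reads. The other genes, MIR199A-2 and MIR199B, are elsewhere in the assembly, so the source of those reads was not resolved. miR-126-3p had 2 and 3 reads, at or under the floor, so no ratio is given. The opposite arm of miR-126, miR-126-5p, had 1 control read and 18 knockdown reads, all of them 1 sequence of 21 nt, with a ratio of 17.8 (2.81 to 741). Its level was 0.0845 and 1.502 RPM. Over the opposite arms of the 7 miRNAs, which come from the same hairpins and libraries, miR-126-5p was the 1 with more than 3 reads.

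**Figure D2:**
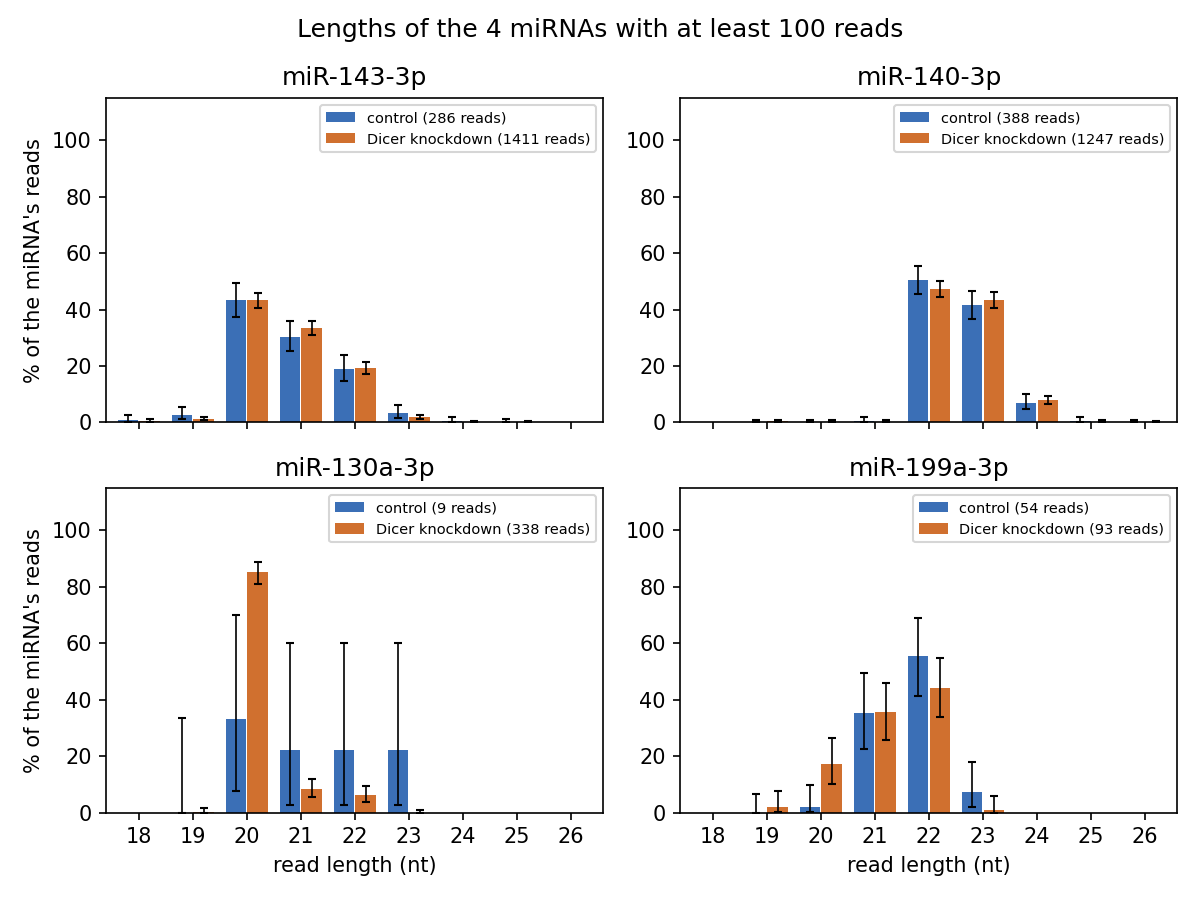
Share of each miRNA's reads (%) by read length (nt) in the control library (blue) and the Dicer knockdown library (orange), with exact binomial intervals as bars. The profiles of miR-143-3p and miR-140-3p overlap in the 2 libraries, miR-130a-3p has 85.2% of its knockdown reads at 20 nt, and miR-199a-3p has more 20-nt reads in the knockdown library.

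**Figure D3:**
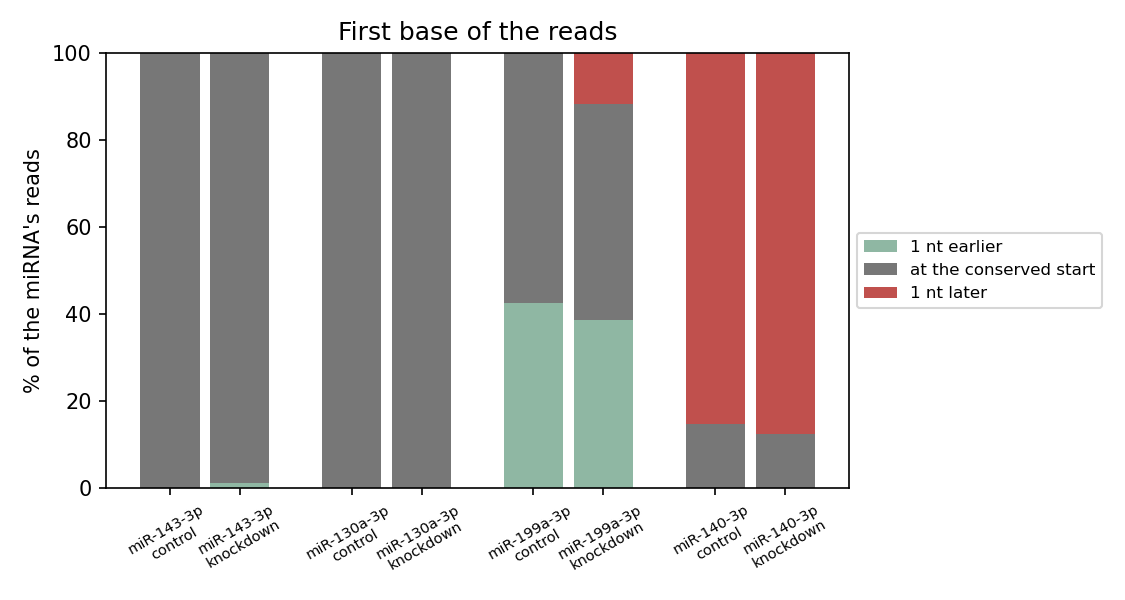
Share of each miRNA's reads (%) that begin at the conserved base (grey), 1 nt earlier (green) or 1 nt later (red), by library. miR-140-3p begins 1 nt later in 85.3% of control and 87.5% of knockdown reads, and miR-199a-3p is divided between starts, while miR-143-3p and miR-130a-3p begin almost wholly at the conserved base.

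Shortened forms were compared across the miRNAs as the share of reads of 18 to 20 nt among those of 18 to 26 nt. Over the 7 miRNAs together it was 18.9% (16.2 to 22.0%) in the control, 140 of 739 reads, and 30.8% (29.2 to 32.4%) in the knockdown, 953 of 3096 reads. Most of the control value was miR-143-3p, with 134 short reads, and its own share did not differ beyond counting error, at 46.9% (41.0 to 52.8%) and 45.2% (42.6 to 47.9%). Without miR-143-3p the share was 1.325% in the control and 18.7% in the knockdown. Of those 315 short knockdown reads, 289 were of miR-130a-3p, 18 of miR-199a-3p and 8 of miR-140-3p. Those of miR-199a-3p include its 11 reads with the later start. When short meant 18 to 19 nt the shares were 1.62% (0.842 to 2.82%) and 1.16% (0.816 to 1.61%). These intervals overlap, so the difference lay in reads of 20 nt. All other entries together had 2.78% (2.74 to 2.82%) and 5.28% (5.23 to 5.33%). Of the 70 other entries with at least 100 reads, 41 had a higher share of short reads in the knockdown library, and 10 were higher by at least 10 percentage points. The median share of these 70 was 1.74% in the control and 3.83% in the knockdown. Shorter miRNA reads were thus more frequent in the knockdown library outside these miRNAs as well. Reads of 21 to 26 nt had a ratio of 3.53 (3.23 to 3.88) over the 7 miRNAs together, 0.983 (0.980 to 0.986) over all other entries and 1.08 (1.07 to 1.09) over the other entries without miR-10b and miR-182. Among the 72 entries with at least 100 reads of that length, which include some of the 7 miRNAs, the median ratio was 1.18, and 13 were at least 2-fold higher and 2 at least 2-fold lower.

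**Figure D4:**
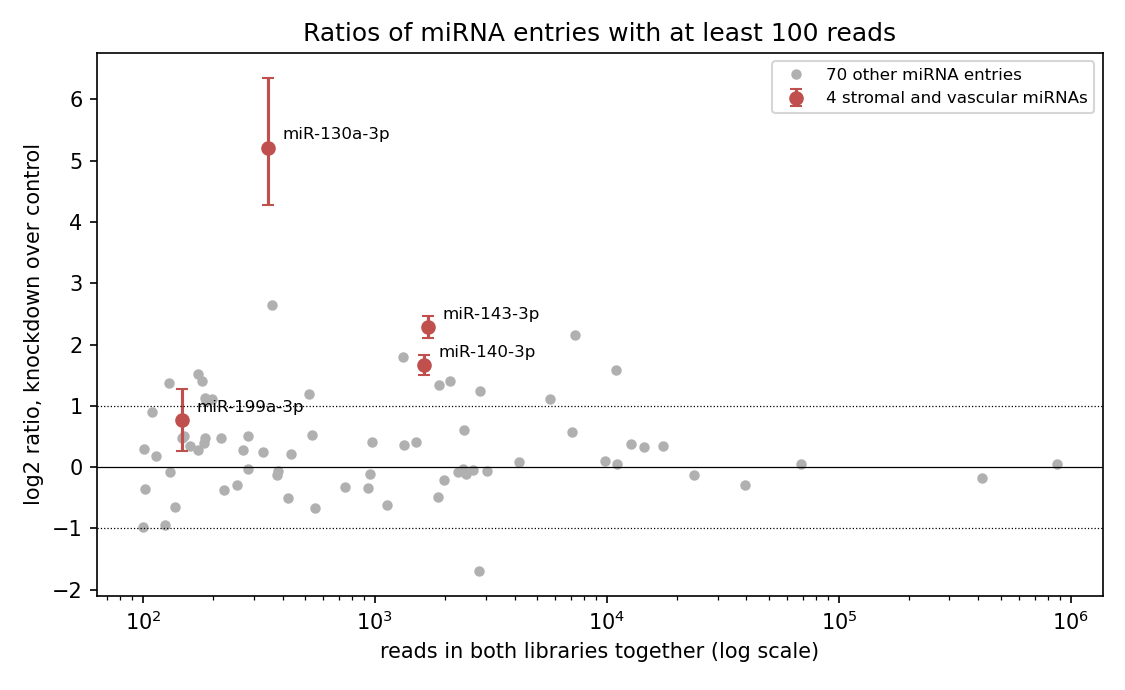
Log2 ratio of knockdown to control against the reads in both libraries together (log axis) for the 74 miRNA entries with at least 100 reads; red points are the 4 stromal and vascular miRNAs with exact conditional intervals, grey points the 70 other entries, and dotted lines mark 2-fold differences. miR-130a-3p stands highest at 5.21, miR-143-3p and miR-140-3p lie at 2.29 and 1.67, and miR-199a-3p at 0.77 is below the 2-fold line.

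Outside the 7 miRNAs, the entries with ratios nearest to that of their sum, among those with at least 100 reads, were the shared form of miR-27a and miR-27b at 4.45 (4.20 to 4.73), miR-10a at 3.49 (3.06 to 3.98), miR-423-5p at 2.99 (2.86 to 3.12), miR-99a at 2.87 (2.03 to 4.15) and miR-378 at 6.25 (4.61 to 8.63). With 2 libraries, likeness here means a similar ratio and nothing more.

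Lists of miRNAs named for cells that could be present with the oocytes were summed in the same way. Whether each member is restricted to the cell type of its list was not checked here. Other mesenchymal miRNAs, all 10 of 10 with reads, summed to 11.5 RPM in the control and 25.0 RPM in the knockdown, a ratio of 2.17 (1.77 to 2.68). Within that list, miR-152, a member of the miR-148 family, had 1 and 28 reads, and miR-29a, which targets collagen mRNAs, had 4 and 55, while miR-29b had 3 and 3 and miR-218 6 and 5. The member with most reads, miR-34c, had 77 and 109, and its ratio of 1.40 (1.035 to 1.90) was below that of the list. miR-497 had 22 and 60. Other endothelial miRNAs, 5 of 6 with reads, summed to 7.60 and 16.5 RPM, also a ratio of 2.17 (1.69 to 2.82), and miR-503 was at 0. Most of this difference was miR-222, with 49 and 131 reads. miR-210 had 16 and 43 reads, while miR-221 had 15 and 16, miR-139-5p 6 and 6, and miR-424 4 and 2. The blood list, 4 of 7 with reads, stood at 35.8 and 51.7 RPM, a ratio of 1.44 (1.27 to 1.64). In it miR-486 had 413 and 559 reads, miR-142-5p 1 and 47, the red cell miRNA miR-451 7 and 5, and miR-144, miR-142-3p and miR-223 were at 0. The granulosa and cumulus list, 5 of 6 with reads, stood at 472 and 608 RPM, a ratio of 1.29 (1.24 to 1.33). Nearly all of it was miR-21-5p, with 5476 and 7177 reads, while miR-202-5p had 6 and 32, miR-212 6 and 7, miR-132 57 and 45, and miR-224 was at 0. miR-383 was lower in the knockdown library, with 47 and 27 reads, a ratio of 0.567 (0.340 to 0.930). The muscle list, 1 of 3 with reads, had 0 and 2 reads in all, and miR-1 and miR-206 were at 0. The part of RNA from other cells in the levels of the 7 miRNAs was not tested.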

How the data were processed

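For each library the authors deposited a table of distinct sequences, with the length and the raw, unscaled read count of each. Per the labels' protocols, adapters were ligated to small RNAs of the oocytes, which were then reverse transcribed, amplified by PCR, purified on a gel and run on an Illumina sequencer. The submitters' processing notes name Bowtie2. Its version, any trimming and the build are not given in the sources used here. Sequences run from 18 to 44 nt in both tables, so shorter forms are not seen.

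The miRNAs and lists were chosen with earlier results of these data known. For matching, bases 2 to 18 of 177 conserved vertebrate miRNAs were written down from background knowledge, which gave 169 distinct entries. They were not taken from a pig miRNA table, so pig-specific differences or errors in this stretch would lose reads. A count of 0 can therefore also come from a stretch that is not the one of the pig. The reversed stretches of the 7 miRNAs matched 0 reads, which is no check that the stretches themselves are right. Every sequence printed was read from the deposited tables. Positions count from 1 at the conserved 5' end, and the forms printed are among the 3 with most reads in a library. Also named were opposite arms, entries with the same seed and the 5 entries nearest in ratio to the sum. RefSeq's gene table of Sscrofa11.1 was used for neighbours alone.

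RPM values are reads scaled to all reads of a library. Intervals at 95% are exact: Poisson for counts, Clopper-Pearson for shares and conditional binomial for ratios. Where a count was 0, 3 reads served as the floor. No p-value was computed, as each group has 1 library. The calculation of ratios and intervals was run on simulated Poisson counts, which hold no PCR duplication and no variation between libraries. Python 3.11.15, numpy 2.4.6, pandas 2.3.3, scipy 1.17.1 and matplotlib 3.10.9 were used.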

Additional observations from a re-analysis of the deposited data

How the results depend on the processing

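The summed ratio of the 7 miRNAs, 4.14, was 4.99 when reads had to start exactly at the conserved base, which removes most reads of miR-140-3p, and 3.67 without miR-143-3p. Under the other 7 alternatives (other totals, single reads left out, other match rules) it stayed within its counting interval. The number called was 3 or 4 under all 12 alternatives, the 4 with a 1.5-fold rule. With the exact start, the share of short reads was 36.1% in the control and 48.0% in the knockdown. Without miR-143-3p it was 1.325% and 18.7%, with short set to 18 to 19 nt 1.62% and 1.16%, and with 18 to 21 nt 33.8% and 48.1%. miR-140-3p had a ratio of 2.70 with the exact start. The ratio of miR-199a-3p was then 1.47, with an interval of 0.910 to 2.39 that includes equal levels. No paired analysis was possible because there is 1 library per group. Depth limits miR-145-5p, miR-126-3p and miR-214-3p, with at most 4 reads in a library, and miR-130a-3p through its 9 control reads.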

Other observations

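Reads that held bases 2 to 18 of the 7 miRNAs outside the length or start rule were rare. Reads that begin 2 nt or more after the conserved start lack base 2 and were not searched. miR-140-3p had 6 control and 3 knockdown reads longer than 26 nt, the longest of 42 nt, and 2 and 0 reads of 18 to 26 nt with another start. miR-199a-3p had 0 and 1 reads longer than 26 nt, and 1 and 0 with another start. The other 5 miRNAs had none, and no read of any length held the reverse complement of this stretch for any of the 7.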
